A study of Caenorhabditis elegans with 43 samples.

Results

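Small RNA reads that fall on snRNA genes were examined in *C. elegans*. The 129 genes typed as snRNA in the annotation, of 46904 annotated features in all, were taken as the members, whatever their counts, and the SNPC-1.3 ChIP-seq bins that overlap them were read gene by gene. The study used small RNA-seq and ChIP-seq of whole worms to ask how SNPC-1.3, a subunit of a transcription factor complex, and TRA-1, a repressor of its gene, set the expression of piRNAs. Small RNA was sequenced from wild-type N2 hermaphrodites (WT) at 48 hr as L4 larvae, when the germline makes sperm (3 libraries), from snpc-1.3(-) worms, which carry the loss-of-function allele xk27, at 48 hr (2 libraries), from WT at 72 hr as gravid adults, when it makes oocytes (3 libraries), and from snpc-1.3(2xtbs) worms at 72 hr (3 libraries). In the last strain, allele xk36, 2 TRA-1 binding sites in the promoter of snpc-1.3 are mutated, and its genotype label also names a 3xFlag tag. SNPC-1.3 ChIP-seq was done at 48 hr with an antibody to Flag, in 2 replicates per strain that each have an input, in N2, which has no tag, in snpc-1.3::3xflag (allele xk32, called tagged here), and in worms whose SNPC-4 carries a degron, in the presence of the germline-driven degradation factor TIR1 and of 250 µM auxin for 4 hr (called SNPC-4-depleted). For these last libraries the label of the genotype has snpc-4(xk23), unc-11(ed3) and the TIR1 transgene ieSi38 but not the tag, which their titles give. No tagged library without the degron had auxin or TIR1. Loss of SNPC-4, auxin and the other alleles of this strain therefore cannot be told apart. TRA-1 ChIP-seq was done at 72 hr, in 2 replicates per strain, in N2 and in strains with a 3xFlag-tagged TRA-1. The tagged strains had the snpc-1.3 promoter intact or with 1, 2 or 3 TRA-1 sites mutated. In whole worms, fewer cells that hold an RNA and less RNA per cell cannot be told apart.

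Small nuclear RNAs are the RNA cores of the spliceosome. U1 pairs with the 5′ splice site, U2 with the branch point, U6 replaces U1 at the 5′ splice site, and U5 holds the exons, while nematodes also use SL RNAs, whose 5′ leader is spliced onto other mRNAs, and SmY RNAs, which are found with the SL trans-splicing machinery. Their genes are transcribed with the help of SNAPc, a complex that binds a short element just upstream of the start, and SNPC-4, its largest subunit in *C. elegans*, also serves the piRNA genes. The genes are longer than the reads that were sequenced, so that, apart from the shortest locus, a count here is a short fragment and not the whole RNA.

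The annotation names only some of the families, so the genes were joined by sequence, at 80% identity over the shorter gene, and described by letters they share. There were 12 sls-1 genes (SL1 RNA, 68 to 98 nt, 2 distinct sequences, all on chromosome V), 19 genes of the sls-2 group (SL2-type RNA, 104 to 114 nt) and 10 smy genes (SmY RNA, 77 to 90 nt). A set of 14 genes was joined to H27M09.6, the single locus that holds both qPCR primers the study used for U1, and 12 of these 14 held ACTTACC, the letters that pair with the 5′ splice site. This U1-primer group included sup-6 and sup-39, and also mir-1831, a 22 nt locus that lies inside sup-39 and is typed as snRNA. A set of 23 genes of 93 to 108 nt held the U6 box ACAGAGA in 22 (U6-box group), 12 genes of 117 to 126 nt held the U5 loop letters GCCTTTTAC in 11 (U5-loop group), 19 genes of 185 to 187 nt held GTAGTA in 18 (185-187 nt group), and 5 genes of 142 to 144 nt formed a group with no name. The letters GTAGTA, which in U2 pair with the branch point, were looked for after the sequences had been seen. The other 15 genes matched none of these. ATTTTTG, the core of the Sm binding site, stood in 72 of the 129 genes, among them all 10 smy genes and all 19 genes of the 185-187 nt group but none of the U6-box group.

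A gene of 6 of the groups is shown, 5′ to 3′ on the gene's own strand, from the RefSeq sequence of WBcel235, whose coordinates were equal to those of the count table for all 129 genes. They are sls-1.10 (chrV:17120694-17120791, minus strand), sls-2.14 (chrIII:11090412-11090523, minus), smy-10 (chrIV:13601636-13601725, plus), sup-6 (chrII:12944803-12944967, minus), Y57G11C.35 (chrIV:14764848-14765034, minus) and T11F9.16 (chrV:11488291-11488434, minus). Capitals mark the Sm core in sls-2.14, smy-10 and T11F9.16, and the letters that define the group in sup-6 and Y57G11C.35.
sls-1.10: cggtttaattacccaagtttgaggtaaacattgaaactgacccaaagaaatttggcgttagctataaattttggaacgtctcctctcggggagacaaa
sls-2.14: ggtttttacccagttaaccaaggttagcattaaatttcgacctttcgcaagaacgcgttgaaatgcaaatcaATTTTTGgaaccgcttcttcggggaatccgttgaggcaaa
smy-10: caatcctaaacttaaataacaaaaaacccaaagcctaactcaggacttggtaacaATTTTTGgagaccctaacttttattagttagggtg
sup-6: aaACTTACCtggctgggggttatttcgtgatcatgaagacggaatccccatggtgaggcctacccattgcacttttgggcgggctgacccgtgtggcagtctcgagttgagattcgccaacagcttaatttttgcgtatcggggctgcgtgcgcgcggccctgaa
Y57G11C.35: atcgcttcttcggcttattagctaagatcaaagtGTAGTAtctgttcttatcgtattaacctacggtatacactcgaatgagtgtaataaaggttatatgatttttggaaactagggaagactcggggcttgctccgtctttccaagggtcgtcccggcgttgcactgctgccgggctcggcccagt
T11F9.16: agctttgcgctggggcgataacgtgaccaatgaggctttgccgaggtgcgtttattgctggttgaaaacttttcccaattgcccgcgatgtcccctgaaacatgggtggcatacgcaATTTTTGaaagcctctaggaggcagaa

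The families are repeated, and this limits which gene a read can be given to. The 129 genes had 94 distinct sequences, and 44 genes shared theirs with another. A read was aligned without mismatches, reported at up to 5 places and counted at every feature it overlapped, so copies share reads, and the strand setting of the counting was not given in the sources used here, so reads from a gene and from its antisense strand could not be told apart. By position, 87 of the 129 genes overlapped another annotated feature (63 a protein-coding gene, 39 an ncRNA and 3 a piRNA) and 42 overlapped none. A count was present in every library for 99 genes, and 5 genes (C35D6.6, T10H4.16, T10H4.17, B0213.21 and B0213.24) had none in any library. Library totals on features ran from 4336397 to 22346249 counts.

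Nearly all of these counts came from sls-1. The share of all counts that fell on snRNA genes was 2.56%, 2.26% and 1.70% in the 3 WT 48 hr libraries, 1.77% and 1.92% in snpc-1.3(-), 6.85%, 7.10% and 8.64% in WT 72 hr, and 9.66%, 6.98% and 9.52% in snpc-1.3(2xtbs). The 2 stages did not overlap, and at each stage the mutant overlapped WT. The 12 sls-1 genes made up 96.6% to 98.8% of these counts in the 11 libraries, with a mean of 2.11% ± 0.43 of all counts in WT 48 hr (SD, n = 3) and 7.40% ± 0.97 in WT 72 hr (SD, n = 3). They held the 10 highest mean normalised read counts (CPM, scaled to the total on features) of all members. In order they were sls-1.8, sls-1.9, sls-1.4, sls-1.5, sls-1.6, sls-1.11, sls-1.3, sls-1.1, sls-1.10 and sls-1.2, and sls-1.7 was next. Within a library, the 11 sls-1 genes on the minus strand differed by 0.383% to 3.48% of their mean, so they gave 1 value and not 11. For sls-1.10 the counts were 12841, 21052 and 6421 in WT 48 hr and 66888, 74923 and 87359 in WT 72 hr. sls-1.12, the copy on the plus strand, had 8.85% to 10.3% of the mean of the others.

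Without sls-1, the other 117 genes took 0.0608% ± 0.0043 of all counts in WT 48 hr (SD, n = 3), 0.0538% ± 0.0040 in snpc-1.3(-) (SD, n = 2), 0.128% ± 0.0032 in WT 72 hr (SD, n = 3) and 0.129% ± 0.0088 in snpc-1.3(2xtbs) (SD, n = 3). This share was 2.097 times as high in WT 72 hr as in WT 48 hr, and 1.56 times for the 30 of these genes that overlap no other feature, against 3.50 times for sls-1. The snoRNA genes, small nucleolar RNAs that are also made in the nucleus, took a share 1.89 times as high in WT 72 hr, and the tRNA genes 1.27 times as high. Among the groups, the smy genes differed most between the stages, by 8.51 times, followed by the U6-box group at 4.53 times. The smy genes together had 1.94, 2.64 and 2.31 CPM in WT 48 hr and 21.6, 19.5 and 17.4 CPM in WT 72 hr, which do not overlap. The sls-2 group differed by 1.40 times and the 142-144 nt group by 1.36 times, and the share of the 15 other genes was 0.815 times that of WT 48 hr.

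**Figure D1:**
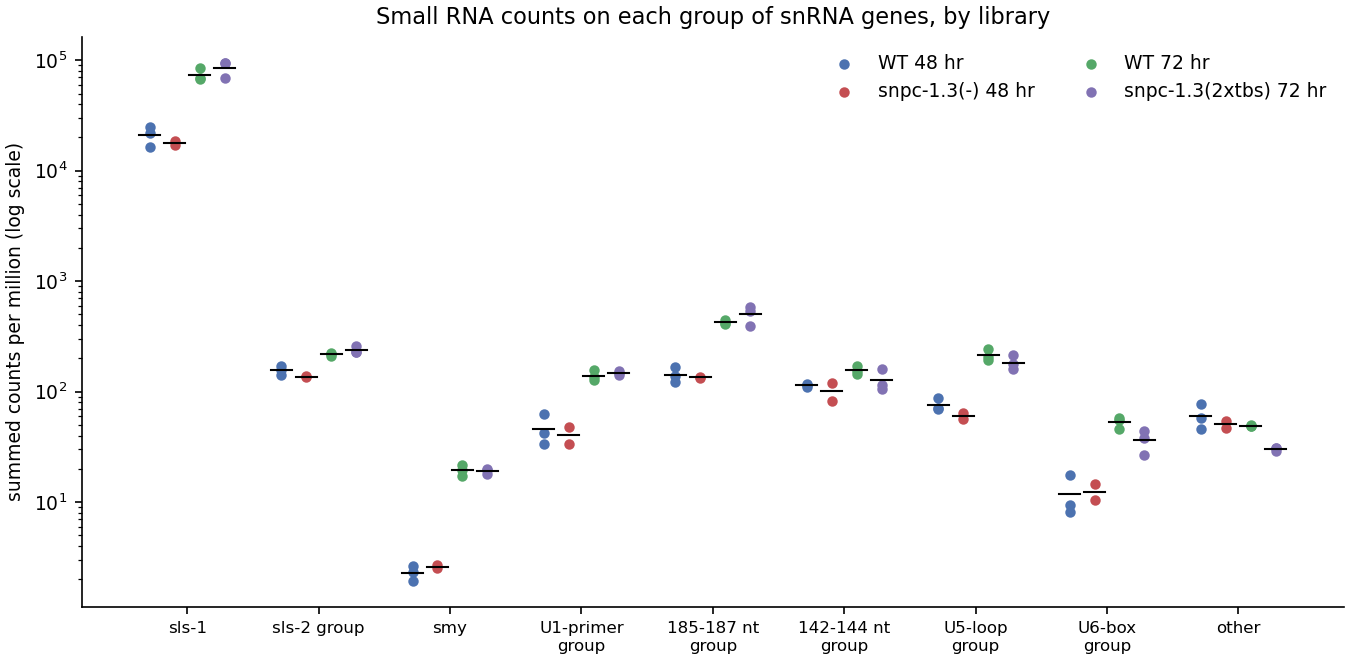
Summed small RNA counts in CPM (log axis) on each group of snRNA genes, with 1 point per library and a line at the mean of each condition. The 3 WT 72 hr libraries lie above the 3 WT 48 hr libraries in all groups but the 15 other genes, and the smy genes are the lowest group at 48 hr, at 1.94 to 2.64 CPM.

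WT 48 hr and WT 72 hr were compared first, to ask which snRNA genes differ between spermatogenesis and oogenesis. Each time point was run on a flow cell of its own, so stage and flow cell cannot be told apart. Of the 129 genes, 115 passed the filter on low counts and were tested together with all other features by edgeR's quasi-likelihood test, and a feature was called at an absolute log2 fold change of at least 0.26 and an adjusted p of at most 0.05. At 48 hr, 69 of the 115 snRNA genes were called lower, where 29.1% of all 16968 features tested were called lower, and 4 were called higher, where 30.2% of all features were. Copies of a gene share reads, so these are not 115 independent values. Without the 12 sls-1 genes, 57 of 103 were called lower (55.3%). The median log2 fold change was -1.02 over the 115 genes and -0.17 over all features. The level of all features moved with the scale, to -0.77 with library totals and -1.17 with miRNA totals, and the snRNA median stayed 0.85 to 0.88 below it (-0.85 here, -0.87 with library totals, -0.88 with miRNA totals). The share of miRNA counts differed between the stages, with 78.3% of all counts in WT 48 hr and 59.4% in WT 72 hr, and its part in the result was not tested. The medians of the other nuclear and tRNA genes lay nearer to that of all features, at -0.30 for 125 snoRNA genes, of which 30 were lower and 7 higher, and at 0.20 for 620 tRNA genes. Leaving out WT 48 hr replicate 3, the shallowest library, took the number of snRNA genes called from 73 to 33, of which 29 were lower and 4 higher. In that fit 25.4% of the 114 snRNA genes tested were called lower, near the 25.7% of all features, and their median lay 0.66 below that of all features (-0.82 against -0.17). Leaving out WT 48 hr replicate 1 took the number called to 50, with 40.9% of the snRNA genes and 25.0% of all features lower.

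The lower calls were spread over most of the groups, but not over the 142-144 nt group or the genes that matched no group. They took in 12 of 12 sls-1 genes (log2 fold change -1.25 to -1.22), 16 of 19 genes of the 185-187 nt group, 10 of 12 of the U5-loop group, 15 of 22 tested of the U6-box group, 9 of 14 of the U1-primer group and 4 of 9 tested smy genes. Calls within a group are not independent where copies share a sequence. The 12 sls-1 genes had 2 distinct sequences, the 23 U6-box genes 8 and the 19 genes of the 185-187 nt group 12. The sls-2 group had few calls, with 3 lower and 2 higher of 18 tested and a median of -0.18, and the 142-144 nt group had 1 higher and none lower of 5 with a median of 0.08. The median was -1.43 in the U6-box group, -1.57 in the smy genes, -1.02 in the 185-187 nt group, -1.02 in the U1-primer group and -0.89 in the U5-loop group. Of the 40 tested genes that overlap no other feature, 23 were called lower (57.5%, against the 29.1% of all features) and 2 higher (5.0%, against 30.2%).

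The smallest adjusted p belonged to smy-1 (chrIV:9511763-9511839, minus strand). It had 3, 5 and 1 counts in WT 48 hr and 103, 108 and 97 in WT 72 hr, with no overlap between the stages, and its log2 fold change was -3.72 ± 0.49 (SE, adjusted p = 6.24e-06, edgeR). It overlaps C33A12.3, a protein-coding gene that had 25, 26 and 17 counts at 48 hr and 87, 121 and 79 at 72 hr, and whose part in the result was not tested. In the mutants smy-1 had 0 and 4 counts in snpc-1.3(-), and 221, 127 and 84 in snpc-1.3(2xtbs).

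A second SmY gene, smy-6 (chrV:14097435-14097517), had 0, 0 and 0 counts in WT 48 hr and 15, 21 and 16 in WT 72 hr. It was at least 10.4-fold lower at 48 hr, set against a floor of 3 counts over the WT 48 hr libraries (adjusted p = 0.000223, edgeR). D1086.2, the gene it overlaps, had at most 4 counts in any WT library. For smy-7 (chrIV:6460683-6460764), which overlaps no other feature, the counts were 1, 2 and 0 against 35, 26 and 18, a ratio of 15.8 with an exact counting interval of 5.21 to 78.3 (adjusted p = 0.000252, edgeR). All 9 smy genes tested had a log2 fold change below 0, including the 5 that were not called.

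T14B4.10 (chrII:6716169-6716354), a member of the 185-187 nt group that overlaps no other feature, had 4.22, 6.60 and 6.92 CPM in WT 48 hr and 23.4, 25.0 and 28.5 CPM in WT 72 hr. The stages did not overlap, and the log2 fold change was -1.55 ± 0.34 (SE, adjusted p = 0.000873, edgeR). T20D3.12 of the U6-box group had 5, 7 and 4 counts at 48 hr and 68, 75 and 34 at 72 hr (log2 fold change -2.03 ± 0.47 SE, adjusted p = 0.00115, edgeR). It overlaps coa-4, which had at most 2 counts in any WT library, and T20D3.13, another snRNA gene, which had 1, 6 and 2 counts against 15, 23 and 11. H27M09.6, the locus with both U1 primers (chrI:6847137-6847303), had 3.17, 4.53 and 1.84 CPM at 48 hr and 12.5, 15.3 and 11.7 CPM at 72 hr (log2 fold change -1.33 ± 0.35 SE, adjusted p = 0.00331, edgeR).

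The 4 genes called higher at 48 hr came from 3 of the sets. sls-2.3 (chrII:5544164-5544273), an SL2-type gene, had 9.67, 10.7 and 16.1 CPM at 48 hr and 7.42, 5.79 and 6.84 CPM at 72 hr (log2 fold change 1.39 ± 0.29 SE, adjusted p = 0.000484, edgeR). T11F9.16, of the 142-144 nt group, had 14.6, 15.7 and 15.0 CPM against 10.9, 11.2 and 7.63 CPM (1.22 ± 0.26 SE, adjusted p = 0.000585, edgeR). In both genes every 48 hr library lay above every 72 hr library. M163.13 (chrX:14476867-14476946), one of the 15 other genes, had 49.6, 69.4 and 36.0 CPM against 37.4, 35.1 and 36.3 CPM, so the stages overlapped in CPM (log2 fold change 1.14 ± 0.34 SE, adjusted p = 0.00757, edgeR). Where library totals set the scale, sls-2.3 alone of these genes stayed called, at 0.85, and where miRNA totals did, none was, with 0.46 for sls-2.3, 0.20 for T11F9.16 and 0.11 for M163.13. The call of sls-2.8 (chrIII:12250465-12250575) rested on the scale, with 4.75, 2.36 and 4.15 CPM against 3.08, 3.103 and 2.98 CPM, a log2 fold change of 0.82 ± 0.33 (SE, adjusted p = 0.043, edgeR) and one of -0.13 when miRNA totals set the scale.

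**Figure D2:**
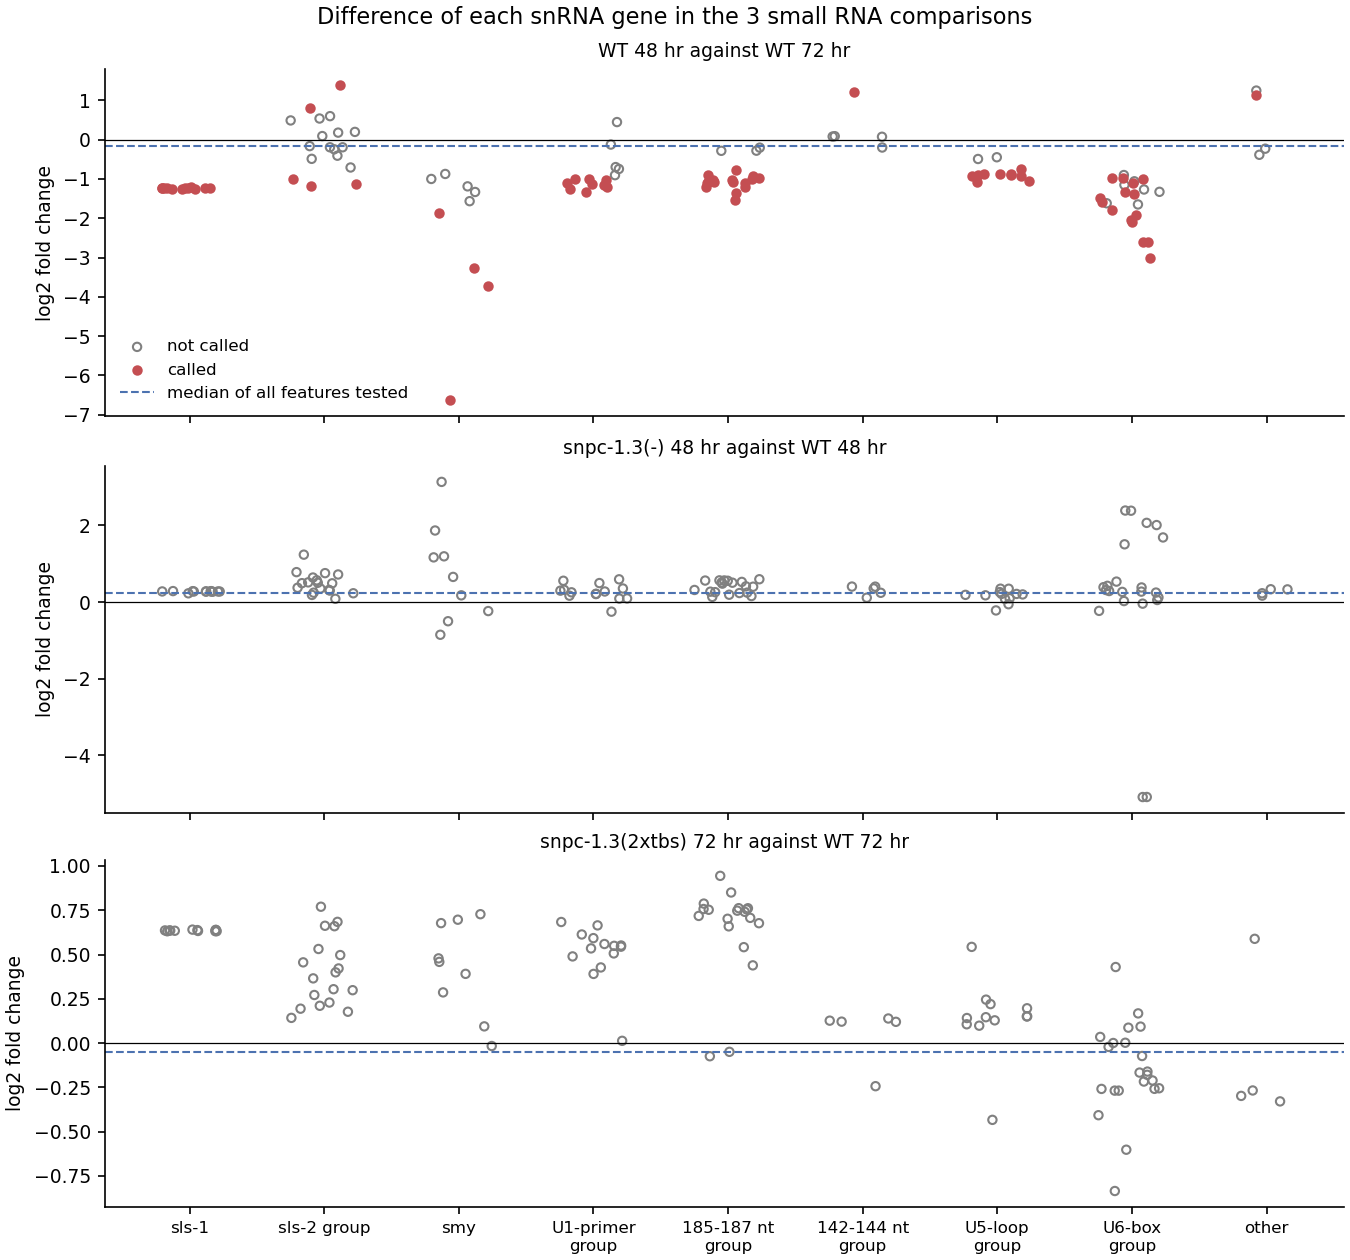
Log2 fold change of each of the 115 tested snRNA genes by group in the 3 small RNA comparisons, with filled red points for genes called by edgeR and a dashed line at the median of all features tested. Calls appear only in the upper panel, 69 below and 4 above 0. On this scale, 105 of the 115 points in the middle panel and 92 in the lower panel lie above 0. The snRNA median of both panels turns below 0 with library totals.

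The loss of snpc-1.3 was examined next, in snpc-1.3(-) against WT at 48 hr. None of the 115 snRNA genes was called by edgeR, where 18.6% of all features were called higher and 17.5% lower, and DESeq2 called none either. An unadjusted p under 0.05 (edgeR) was found for 8 of the 115 snRNA genes, against 7182 of all 16968 features tested. Of these 8 genes, 6 were in the U6-box group. The smallest adjusted p, 0.0601, belonged to sls-2.17 (chrIV:5317260-5317368), with 9, 9 and 3 counts in WT and 12 and 19 in snpc-1.3(-). It was called higher in 2 of the fits that left out 1 library. The median log2 fold change was 0.28, close to the 0.23 of all features, and with library totals these were -0.22 and -0.29. The sls-1 genes took 2.50%, 2.20% and 1.65% of all counts in WT 48 hr and 1.72% and 1.87% in snpc-1.3(-), which lie within the WT range. For sls-1.10 the log2 fold change was 0.28 ± 0.40 (SE). Per-library counts of U6-box genes were low here, with 41 to 187 counts over the whole group in WT and 98 and 118 in snpc-1.3(-), so differences of single genes were poorly measured at this depth. As a check of the labels, snpc-1.3 itself had 1, 5 and 2 counts in WT 48 hr and 0 and 1 in snpc-1.3(-), too few in a small RNA library to tell the genotypes apart.

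The mutation of the TRA-1 sites was then compared, in snpc-1.3(2xtbs) against WT at 72 hr. No snRNA gene was called by edgeR or by DESeq2, where 6.58% of all features were called higher and 0.395% lower by edgeR. An unadjusted p under 0.05 (edgeR) was found for 19 of the 115 genes, against 3260 of all 16968 features tested. Of these 19 genes, 14 were in the 185-187 nt group. The median log2 fold change was 0.40 over the snRNA genes and -0.05 over all features. The snRNA median turned below 0 on other scales, to -0.06 with library totals and -0.23 with miRNA totals, where all features had -0.47 and -0.64, and the distance between them was 0.41 to 0.45 over these scales. It fell to 0.19 without snpc-1.3(2xtbs) replicate 1, where the snRNA median was 0.19, and was 0.56 without replicate 3, where the snRNA median was 0.68. Medians by group were 0.74 in the 185-187 nt group, 0.64 in sls-1, 0.55 in the U1-primer group, 0.38 in the sls-2 group and -0.17 in the U6-box group.

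The replicates of this strain differed by family. The 185-187 nt group together had 418.2, 413.0 and 447.8 CPM in WT 72 hr and 589.0, 533.5 and 391.2 CPM in snpc-1.3(2xtbs), so that replicates 1 and 2 lay above WT and replicate 3 below it. For T14B4.10 the values were 40.7, 35.5 and 24.6 CPM in snpc-1.3(2xtbs) (log2 fold change 0.85 ± 0.32 SE, adjusted p = 0.131, edgeR). Without snpc-1.3(2xtbs) replicate 3, 23 of 114 snRNA genes were called higher (20.2%, where 12.1% of all features were) and none lower (2.90% of all features), 16 of them in the 185-187 nt group (log2 fold change 0.93 to 1.43), 4 in the sls-2 group and 3 in the U1-primer group. The sls-1 share showed another order, with 9.52%, 6.84% and 9.40% of all counts in replicates 1, 2 and 3. T11F9.16 had 3.80, 6.82 and 8.53 CPM and M163.13 25.4, 21.2 and 18.9 CPM in this strain.

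Genes for the transcription and use of snRNAs were also read in the small RNA table, from a list of 40 of which 28 were in the table and 10 passed the filter. These counts are short RNAs on the genes and not mRNA levels. Between the stages, 2 of the 10 were called lower at 48 hr, where 29.1% of all features were. They were snpc-4 (log2 fold change -2.38) and snr-1, an Sm protein gene (-2.06). Only sna-2, an SL RNA-binding protein gene (2.73), was called higher, where 30.2% of all features were. In snpc-1.3(-), 3 of the 10 were called higher than in WT, where 18.6% of all features were, and none lower, where 17.5% were. These were the SNAPc paralogs snpc-3.1 (1.21), snpc-3.2 (1.25) and snpc-3.3 (1.06), similar copies that may share reads. In snpc-1.3(2xtbs) none of the 10 was called, where 6.58% of all features were higher and 0.395% lower.

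Binding of SNPC-1.3 was then read at the same genes. The ChIP files list 1 kb bins, as IP and input counts, only where the IP exceeded a constant of 10.5 CPM in each file, and reads of low mapping quality had been removed, so bins of repeated genes can be missing for lack of unique reads. IP libraries held 14980457 to 24896703 counts and inputs 38330920 to 48104586. The start of the 129 genes fell in 124 distinct bins. This start bin was listed for 71 and 71 genes in the tagged replicates, for 60 and 65 in N2 and for 46 and 60 in the SNPC-4-depleted worms, for 26 genes in all 6 files, and for 36 genes in none. Over the whole genome the order was different, with 33.9% and 34.8% of all bins listed in tagged, 43.8% and 43.4% in N2, and 45.3% and 42.7% in SNPC-4-depleted. Of the 12 sls-1 genes, only sls-1.9 was listed in any file, so the family with the most counts could hardly be read by ChIP. All 19 genes of the sls-2 group were listed in tagged replicate 1 and 17 in replicate 2, against 14 and 16 in N2 and 12 and 17 in SNPC-4-depleted. A piRNA cluster on chromosome IV, between 4.5 and 7.0 Mb or between 13.5 and 17.2 Mb, held 16 of the 129 genes, and since bins there are enriched for SNPC-1.3 as a whole, results are given inside and outside these clusters. This split was added after the data had been seen. Over all snRNA genes, 70 and 69 distinct start bins were listed in tagged, 59 and 64 in N2, and 45 and 59 in SNPC-4-depleted. Outside the clusters, the distinct start bins numbered 55 and 54 in tagged, 53 and 57 in N2, and 39 and 55 in SNPC-4-depleted.

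In each file the listed snRNA start bins had a higher median log2 of IP over input than all listed bins, also in N2, which has no tag. The medians in N2 were 0.28 and 0.23, where all listed bins had 0.10 and 0.11. In tagged they were 0.42 and 0.55, against 0.10 and 0.12, and in SNPC-4-depleted 0.18 and 0.22, against 0.09 and 0.13. Among start bins listed in both files of a replicate, the log2 of IP over input in tagged minus N2 had a median of 0.08 over 52 bins in replicate 1 and 0.35 over 51 bins in replicate 2, where all bins gave -0.02 and -0.03. Outside the clusters the medians were 0.05 over 46 bins and 0.33 over 44 bins, with 30 and 40 bins above 0, so that the 2 replicates differed in size. Of the 38 bins outside the clusters with values in both replicates, 22 were above 0 in both and 1 was below 0 in both. In SNPC-4-depleted minus tagged the medians outside the clusters were -0.18 over 35 bins and -0.30 over 40 bins, where all bins outside gave 0.02 and 0.06, and 20 of the 26 bins with both replicates were below 0 in both. Both differences use the same tagged libraries, so they are not independent.

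**Figure D3:**
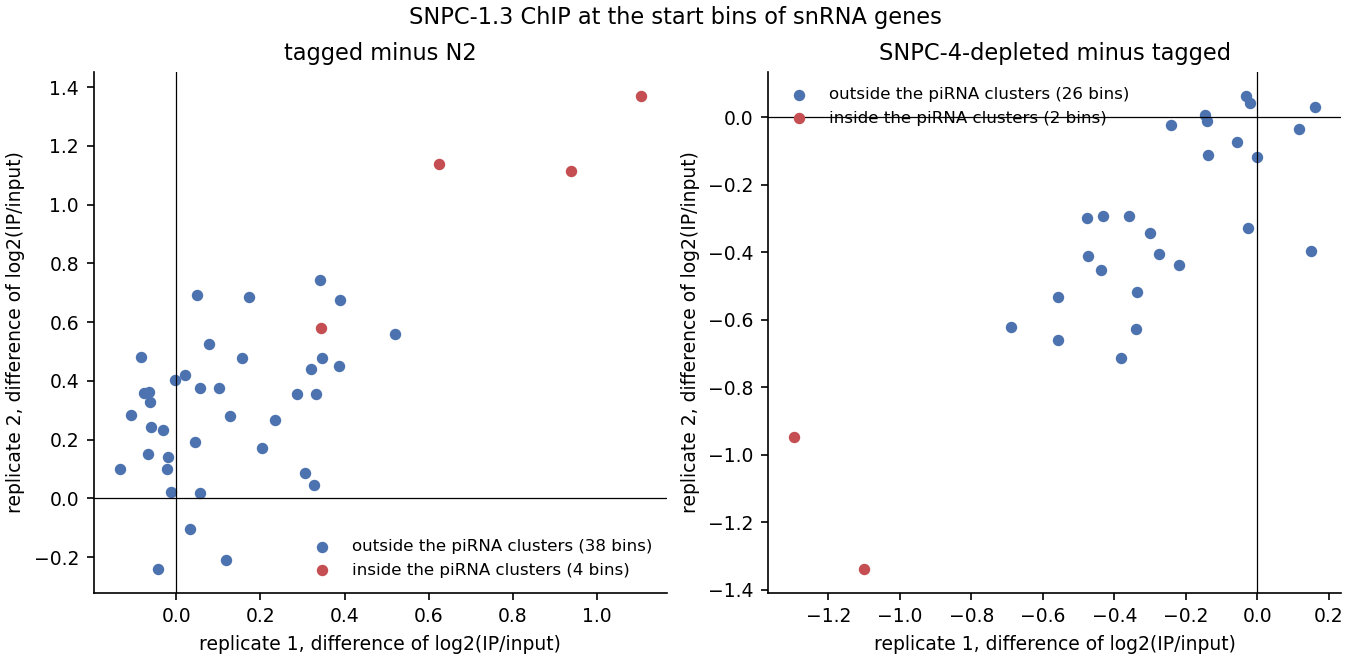
Difference of log2(IP/input) at the start bins of snRNA genes in replicate 1 (horizontal) and replicate 2 (vertical), for tagged minus N2 (left) and SNPC-4-depleted minus tagged (right), with 1 point per bin and red points inside the piRNA clusters of chromosome IV. In the left panel 26 of 42 bins are above 0 in both replicates and 1 is below in both, and in the right panel 22 of 28 are below 0 in both.

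The bins listed in all 6 files were tested in 1 edgeR fit of IP and input counts, 14223 bins in all, of which 28 overlapped an snRNA gene. Tagged exceeded N2 at 4 of the 28 bins, where 2.7% of all bins were called higher, and at none was it lower, where 0.0914% were. At 10 of the 28 bins SNPC-4-depleted was lower than tagged, where 2.79% of all bins were called lower, and at none was it higher, where 0.0914% were. Outside the clusters the counts were 2 of 26 and 8 of 26, against 0.149% and 0.276% of the 13390 bins there. DESeq2 called 2 and 4 of the 28, in the same directions. Leaving out tagged replicate 2 left 2 calls in each comparison, as did leaving out N2 replicate 1 or N2 replicate 2 in tagged against N2, and leaving out SNPC-4-depleted replicate 1 left 3 in the other. The 2 bins that stayed called against N2 in DESeq2 and without any of these libraries were those of Y57G11C.35.

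Y57G11C.35, a gene of the 185-187 nt group inside the second cluster, spans 2 bins. Its start bin had a log2 of IP over input of 0.46 and 0.32 in the N2 replicates, 1.40 and 1.43 in tagged and 0.10 and 0.48 in SNPC-4-depleted, with tagged above all others. The fitted difference between tagged and N2 was 1.03 ± 0.11 (SE, adjusted p = 4.51e-08, edgeR) in that bin and 1.32 ± 0.12 (SE, adjusted p = 7.26e-10) in the neighbouring one. In the SNPC-4-depleted worms the 2 bins were lower than in tagged by 1.14 and 1.31 on the log2 scale. No piRNA gene starts in its start bin, but 43.7% of the 833 bins tested inside the clusters were called higher in tagged, with a median difference of 0.31 over these bins between tagged and N2 and of -0.31 after depletion. In the small RNA data it had 7.74, 8.96 and 7.15 CPM in WT 48 hr and 9.21 and 6.84 CPM in snpc-1.3(-), which overlap.

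Outside the clusters, sls-2.14 gave the largest difference. Its bin had 0.33 and 0.25 in N2, 0.68 and 0.99 in tagged and 0.12 and 0.34 in SNPC-4-depleted, with a fitted difference of 0.55 ± 0.12 between tagged and N2 (SE, adjusted p = 0.00477, edgeR) and of -0.62 ± 0.13 after depletion (adjusted p = 0.00127). sls-2.8 had 0.29 and 0.34 in N2, 0.68 and 0.79 in tagged and 0.24 and 0.34 after depletion, with differences of 0.42 ± 0.11 (adjusted p = 0.0168) and -0.45 ± 0.11 (adjusted p = 0.0089). In both genes the tagged replicates lay above those of the other strains. The bins of sls-2.15, sup-6, sup-39 with mir-1831, H27M09.6, F38E11.10 and C52E4.8 were called lower after depletion, by log2 differences from -0.55 to -0.37, but not higher in tagged than in N2. For sup-6 the values were 0.72 and 0.58 in N2, 0.88 and 1.06 in tagged and 0.32 and 0.53 after depletion, so N2, which has no tag, already had an IP above its input. In the edgeR fit of all libraries, lower calls after depletion thus fell on the sls-2, U1-primer, U5-loop, 142-144 nt and 185-187 nt groups. The U5-loop and 142-144 nt groups were there only through F38E11.10 and C52E4.8, and the 185-187 nt group only through its gene inside a cluster. None of the 3 bins tested of the U6-box group was called. DESeq2 called 4 of the 28 bins, against 10 in edgeR, so the list of groups rests on the edgeR fit. Without tagged replicate 2, the median log2 difference over the 28 bins was -0.17, against -0.26 with all libraries.

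The 8 genes with the highest mean ratio of tagged over N2 in the 4 files were smy-10, Y57G11C.35, sls-2.13, sls-2.14, sls-2.5, ZK897.3, Y9C9A.111 and C53D6.12. Of these, smy-10, Y57G11C.35, sls-2.13 and Y9C9A.111 lie in the clusters. A piRNA gene starts in the bins of smy-10 and of C53D6.12. smy-10 had 0.23 and 0.17 in N2 and 1.34 and 1.54 in tagged, and sls-2.13 had 0.36 and 0.00 in N2 and 0.98 and 1.14 in tagged. Outside the clusters, sls-2.5 had 0.01 and 0.22 in N2 and 0.53 and 0.78 in tagged, ZK897.3, of the U5-loop group, 0.14 and 0.13 against 0.53 and 0.80, and C53D6.12, of the same group, 0.20 and 0.06 against 0.37 and 0.74. Of the 8, only Y57G11C.35 and sls-2.14 had a start bin listed in all 6 files, so the other 6 were not in the test. In the small RNA data no snRNA gene was called in snpc-1.3(-), so the lack of a call at these 8 is not particular to them. Counts could be low there, with 3 in snpc-1.3(-) and 6 in WT 48 hr over all libraries for Y9C9A.111.

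**Figure D4:**
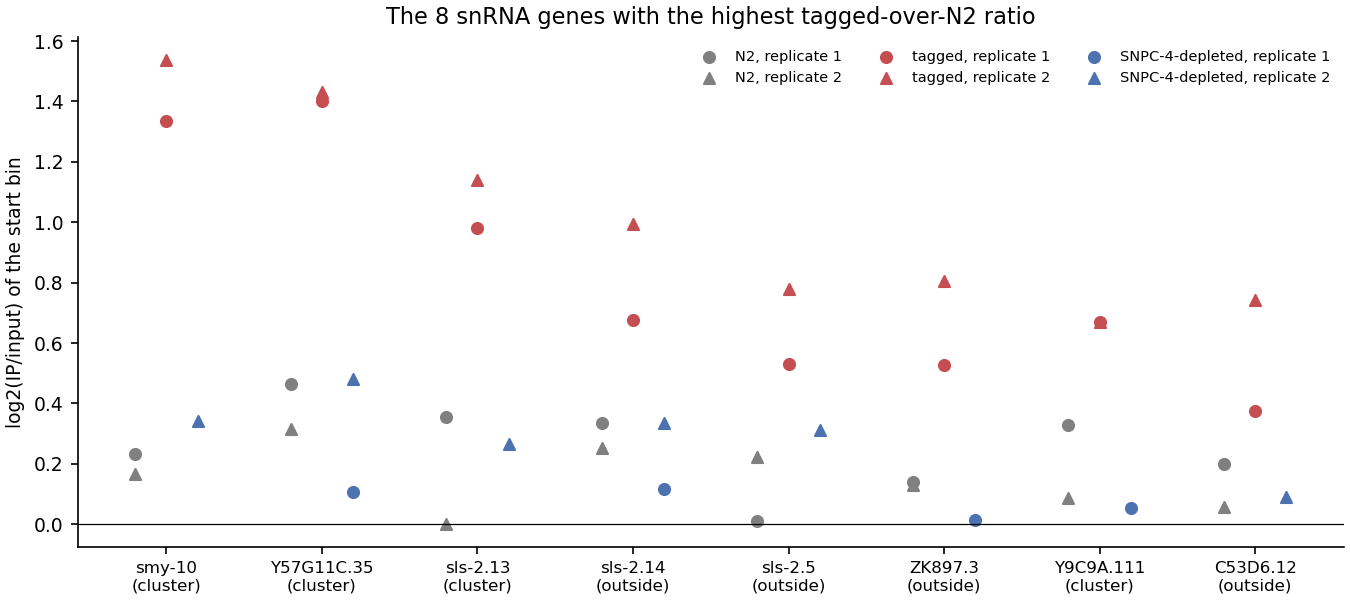
Log2 of IP over input in the start bin of the 8 snRNA genes with the highest tagged-over-N2 ratio, by strain (colour) and replicate (circle or triangle); a missing point is a bin that the file does not list. The tagged values lie above all N2 and SNPC-4-depleted values of the same gene, from 0.37 and 0.74 in C53D6.12 to 1.34 and 1.54 in smy-10. The genes were chosen by high tagged values against N2 in these libraries, so this order is largely set by the choice.

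The DNA upstream of these genes held a shared run of letters, which was looked for after the upstream sequences had been seen. On the gene strand, CCNNNNNNNNGTCNG was present in the 250 bases before the start of 56 of the 129 snRNA genes (43.4%), and in 57 (44.2%) when both strands were searched, against 1.99% and 3.32% of 46868 features with such an upstream stretch. In 55 genes (42.6%) it began 50 to 70 bases before the start, against 0.341% of all features, 6.65% of 346 snoRNA genes and 0.163% of 612 tRNA genes. In 40 genes it lay 56 or 57 bases before the start. It stood in this window in 17 of 19 genes of the 185-187 nt group, 12 of 19 of the sls-2 group, 8 of 23 of the U6-box group, 6 of 12 of the U5-loop group, 6 of 14 of the U1-primer group, 3 of 10 smy genes, 2 of 5 of the 142-144 nt group and none of the 12 sls-1 genes. The position is that of the element which SNAPc is known to bind, but a match of letters is not a binding site. Only exact matches were counted, so a gene without one may still hold a similar run.

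The 80 bases before the start are shown for 8 genes with ChIP or small RNA values given above, 5′ to 3′ on the gene strand and ending at the base before the gene, with capitals on the letters of the run that are fixed. F38E11.10 and sls-1.10 hold no exact match, but each has a similar run at about the same place. In F38E11.10 the letters GAC stand where the run has GTC, and in sls-1.10 a longer stretch separates CC from GTC. Their places in WBcel235 are chrIII:11090524-11090603 for sls-2.14, chrIV:5317369-5317448 for sls-2.17, chrIV:13601556-13601635 for smy-10, chrIV:9511840-9511919 for smy-1, chrIV:14765035-14765114 for Y57G11C.35, chrII:12944968-12945047 for sup-6, chrIV:9444562-9444641 for F38E11.10 and chrV:17120792-17120871 for sls-1.10, of which smy-10 and F38E11.10 are on the plus strand.
sls-2.14 upstream: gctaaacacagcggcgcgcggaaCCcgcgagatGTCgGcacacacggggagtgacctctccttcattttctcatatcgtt
sls-2.17 upstream: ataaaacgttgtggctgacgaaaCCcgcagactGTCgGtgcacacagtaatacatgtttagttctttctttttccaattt
smy-10 upstream: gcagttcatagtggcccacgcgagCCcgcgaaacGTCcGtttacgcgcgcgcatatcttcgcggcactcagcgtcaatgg
smy-1 upstream: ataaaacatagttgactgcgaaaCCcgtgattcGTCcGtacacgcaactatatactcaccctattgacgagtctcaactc
Y57G11C.35 upstream: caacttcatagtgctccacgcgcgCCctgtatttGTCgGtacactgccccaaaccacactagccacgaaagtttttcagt
sup-6 upstream: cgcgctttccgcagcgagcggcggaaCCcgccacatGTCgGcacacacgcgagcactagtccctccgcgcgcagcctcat
F38E11.10 upstream: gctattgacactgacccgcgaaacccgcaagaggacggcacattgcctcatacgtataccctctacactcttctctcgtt
sls-1.10 upstream: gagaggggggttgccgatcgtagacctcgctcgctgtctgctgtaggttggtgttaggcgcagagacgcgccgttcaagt

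**Figure D5:**
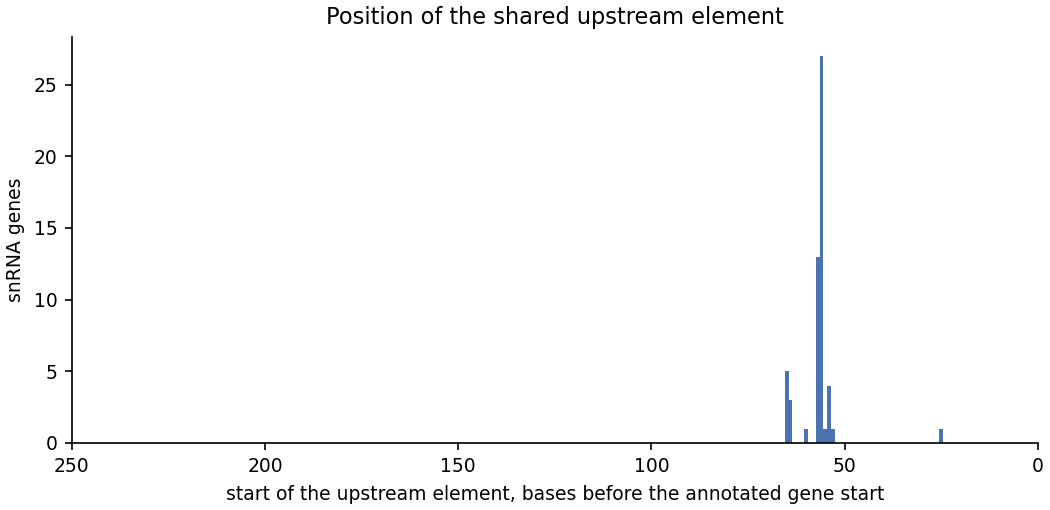
Number of snRNA genes by the distance, in bases before the annotated gene start, at which CCNNNNNNNNGTCNG begins on the gene strand. Of the genes with the run, 40 have it 56 or 57 bases before the start, and 1 has it 25 bases before.

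GTTTCA, the constant part of the motif upstream of many piRNA genes, was searched in the same 250 bases. It stood on the gene strand before 8 of the 129 snRNA genes (6.20%), against 33.3% of all features, 15.2% of protein-coding genes and 72.1% of piRNA genes, and on either strand before 20 (15.5%), against 43.1% of all features. In no snRNA gene did it share a base with the other run. Among start bins outside the clusters, tagged minus N2 had a median of 0.13 over 24 bins with the shared run in its window and 0.04 over 22 without in replicate 1, and of 0.36 over 27 and 0.24 over 17 in replicate 2. SNPC-4-depleted minus tagged had medians of -0.29 with and -0.05 without in replicate 1 and of -0.40 and -0.11 in replicate 2. The ranges overlapped in both replicates and the difference between the bins with and without the run was not tested.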

How the data were processed

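Per the study's methods and the labels, the authors sequenced small RNA of 16 to 30 nt after polyphosphatase treatment, trimmed reads (Trimmomatic 0.39), aligned them to WBcel235 (Bowtie 1.1.1, no mismatch, up to 5 best places) and deposited raw counts per feature (featureCounts of Subread 1.6.3, multi-mapping and overlapping reads counted). Of the SNPC-1.3 ChIP experiment, the authors deposited IP and input counts per 1 kb bin, their CPM (count plus 1 over the library total) and a signal, the CPM of the IP minus a constant. For TRA-1 ChIP-seq, the authors deposited MACS2 peaks with a fold enrichment, the IP pileup as a ratio to the local background, and −log10 p and q values, which were not used. A second set of count tables of the same libraries and a normalized table of piRNA counts were not used. No further per-sample column was left unused (0).

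Samples were grouped by their titles and labels. The labels do not say whether replicates came from separate cultures, so p-values measure the spread between these samples. Replicate libraries differed by more than counting error, with a chi-square of 5.58 to 120 per degree. The 16968 features that passed filterByExpr entered 1 quasi-likelihood fit over the 4 conditions, scaled by TMM (edgeR 4.0.16, legacy setting, R 4.3.3), with Benjamini-Hochberg adjustment over all of them. ChIP bins were fitted with a term for each strain and replicate, on library totals, and adjusted over 14223 bins. DESeq2 1.42.0, other scales, filters, the replicate block and leaving out each library were tried. Both fits were tested on simulated data. CPM used totals on features, and no reads carried molecular identifiers, so the exact 95% interval of a ratio and the floor of 3 counts cover counting error only. The members and lists were chosen with earlier results of these data known. Named with values were up to 5 called genes per direction by adjusted p, the 10 with the highest mean CPM, the 8 with the highest tagged-over-N2 ratio and the locus with both U1 primers, and genes named beyond these were chosen after their values were seen. Gene sequences of the U5-loop and U6-box groups are not reported here.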

Additional observations from a re-analysis of the deposited data

Results flagged for a closer look

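TRA-1 ChIP-seq peaks, all at 72 hr, enter no comparison above. They overlapped more snRNA genes in the strains with a 3xFlag-tagged TRA-1 than in untagged N2, where 61 and 65 of the 129 genes lay in a peak. With the tag alone, 82 and 78 genes did, and with 1, 2 and 3 mutated TRA-1 sites in the snpc-1.3 promoter 81 and 81, 79 and 77, and 80 and 76. The median fold enrichment of the peaks at these genes was 2.04 and 1.98 in N2 and 3.55 to 6.34 in the tagged strains. Peaks covered 6.25% and 7.77% of the genome in N2 and 9.31% to 11.9% in the tagged strains, and the difference at snRNA genes was not tested. These are shares of bases and not of genes, so they are no background for the gene counts. The share of all features that lie in a peak was not examined.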

How the results depend on the processing

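In WT 48 hr against WT 72 hr, 73 snRNA genes were called with TMM, 61 with DESeq2, 93 with library totals, 105 with miRNA totals, 74 with no filter, 25 of 40 that overlap no other feature and 61 of 103 without sls-1 (added after seeing the data), and 33 to 78 when 1 library was left out. The higher calls numbered 4, 6, 1 and 0 in the first 4 of these. In snpc-1.3(-) the count was 0, 1 with library totals, 1 with miRNA totals (K09C6.12 in both, lower, with 7 counts in WT and 0 in the mutant) and 0 to 3 on leaving out a library, the 3 being reached without WT 48 hr replicate 1 or replicate 2, and in snpc-1.3(2xtbs) 0 to 23. Replicate numbers did not pair the small RNA samples (correlations of same-numbered deviations from -0.31 to 0.28), and with the replicate block the 3 counts were 68, 0 and 0. The share on snRNA genes as a percent of miRNA counts was 2.77% in WT 48 hr, 2.27% in snpc-1.3(-), 12.6% in WT 72 hr and 13.04% in snpc-1.3(2xtbs). For tagged against N2, 4 bins were called, 2 with DESeq2, 9 with TMM, 13 of 45 when bins of the 4 files compared were used, 2 outside the clusters, 6 with no replicate block and 2 to 6 on leaving out a library. For SNPC-4-depleted against tagged, 10 were called, 4 with DESeq2, 14 with TMM, 12 of 31 with bins of the 4 files compared, 8 outside the clusters, 11 with no replicate block and 2 to 10 on leaving out a library. Of the values of single genes and bins under the alternatives, 232 kept their direction and call, 51 lost the call, and sls-2.8 turned to -0.13 with miRNA totals. The cause of these shifts was not tested. At 48 hr the smy and U6-box genes had few counts, and genes whose bins fell under the ChIP constant could not be tested.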

Other observations

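Features that overlap the members did not always move with them, as values chosen after they were seen. Y57G11C.5, the protein-coding gene that overlaps Y57G11C.35, had 124, 192 and 107 counts in WT 48 hr and 5 and 9 in snpc-1.3(-), while Y57G11C.35 itself had 44, 95 and 31 against 62 and 78. At 72 hr Y57G11C.5 had 72, 78 and 31 counts in WT and 181, 120 and 105 in snpc-1.3(2xtbs). The ncRNA C17C3.22, which overlaps sls-2.3, had 337, 584 and 270 counts in WT 48 hr and 1289, 1288 and 793 in WT 72 hr, while sls-2.3 had 55, 113 and 70 against 82, 69 and 78.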
